A study of Mus musculus with 217 samples.

Results

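*Tmprss6* and 9 genes of iron uptake, storage, export and sensing (*Trf*, *Tfrc*, *Hfe*, *Slc11a2*, *Fth1*, *Ftl1*, *Slc40a1*, *Aco1* and *Ireb2*) were followed through striatum and cortex of the inducible LacQ140 mouse. These 10 genes were taken by symbol from the 54532 genes of the count tables, and all 10 had counts in both tissues and at both ages. *Tmprss6* was chosen on its fall in the 12-month striatum of LacQ140 mice against WT + IPTG mice, so that contrast is given as values without a test for any of the 10. The other 9 genes were chosen by their role in iron handling.

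RNA-Seq had been performed on 217 libraries from 110 mice on a C57BL/6 background. Every mouse, controls included, carried the β-actin-LacIR transgene, which expresses a lac repressor throughout the body. WT mice had 2 normal *Htt* alleles and received no IPTG, and WT + IPTG mice received IPTG, a lactose analog that releases the repressor, from embryonic day 5. LacQ140 mice carried 1 knocked-in Hdh(LacO-140Q) allele under lac operators and stayed on IPTG, so that m*Htt* was expressed throughout. In LacQ140_A mice the same allele was repressed from conception because IPTG was never given, and LacQ140_2M and LacQ140_8M mice stopped receiving IPTG at an age of 2 and 8 months. Tissue was taken from mice 6 or 12 months old, and LacQ140_8M mice were taken only at 12 months. Repression is partial in this model, so the lowering groups still expressed some m*Htt*. There were libraries of 5 females and 5 males per group, tissue and age (n = 10). The exceptions were WT, LacQ140 and LacQ140_8M striatum at 12 months, with libraries of 4 females and 5 males (n = 9). The 6-month samples are labelled as right striatum and right cortex and as a first batch, and the 12-month samples carry no side and are labelled as a second batch, so age, side and batch cannot be told apart.

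Values are CPM, read counts relative to the library total after scaling by TMM factors. To be called, a gene needed both a p below 0.05 after adjustment over all genes and a level changed by 20% or more. *Htt*, the targeted gene, averaged 111 CPM in the 6-month striatum of WT + IPTG mice, 102 in LacQ140, 87.7 in LacQ140_A and 88.9 in LacQ140_2M. Both alleles are summed in this value. In the 12-month striatum the averages were 146 CPM in WT + IPTG, 111 in LacQ140, 93.4 in LacQ140_A, 100.3 in LacQ140_2M and 111 in LacQ140_8M. The LacQ140_8M and LacQ140 averages thus differed by less than 1 CPM. All 8 markers of striatal projection neurons, among them *Drd1*, *Drd2* and *Ppp1r1b*, were detected in every striatal group.

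Iron reaches brain cells bound to transferrin (*Trf*), which is taken up with its receptor (*Tfrc*), and leaves the endosome through the divalent metal transporter DMT1 (*Slc11a2*). HFE (*Hfe*) binds the transferrin receptor. Iron that is not used is stored in ferritin, a shell of heavy (*Fth1*) and light (*Ftl1*) subunits, and leaves the cell through ferroportin (*Slc40a1*). The iron regulatory proteins IRP1 (*Aco1*) and IRP2 (*Ireb2*) bind hairpins in the mRNAs of several of these genes when iron is scarce. TMPRSS6, also called matriptase-2, is a membrane-bound serine protease known from the liver, where it lowers the hormone hepcidin and thereby lets more ferroportin reach the cell surface. In the brain, transferrin mRNA is made mainly by oligodendrocytes and the choroid plexus.

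The hairpins that IRP1 and IRP2 bind, the iron responsive elements, are shown because they are the sequences through which iron acts on ferritin, ferroportin and transferrin receptor mRNAs, in part on translation, which mRNA counts do not measure. Annotated coding transcripts (GENCODE vM21, GRCm38) were searched on their own strand for a C, 5 bases, the loop CAGTGN and 5 bases that pair with the first 5. A match was found in 4 of the 10 genes (40%), against 294 of 21901 coding genes (1.34%), and it stood before the coding part in 31 genes (0.142%) and after it in 127 (0.58%). The loop is in capitals, and each element is written 5′ to 3′ as RNA-sense DNA.
*Fth1*, 5′ UTR: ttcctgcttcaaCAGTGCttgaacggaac
*Ftl1*, 5′ UTR: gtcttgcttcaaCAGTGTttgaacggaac
*Slc40a1*, 5′ UTR: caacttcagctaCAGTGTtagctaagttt
*Tfrc*, 3′ UTR, element 1: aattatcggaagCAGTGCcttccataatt
*Tfrc*, 3′ UTR, element 2: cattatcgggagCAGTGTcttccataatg
*Tfrc*, 3′ UTR, element 3: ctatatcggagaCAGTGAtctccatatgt
*Tfrc*, 3′ UTR, element 4: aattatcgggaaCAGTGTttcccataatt
The *Fth1* element lies in exon sequence at chr19:9982732-9982760 on the plus strand, the *Ftl1* element at chr7:45459779-45459807 on the minus strand, and the *Slc40a1* element at chr1:45925465-45925493 on the minus strand. The 4 *Tfrc* elements lie at chr16:32631219-32631247, chr16:32631598-32631626, chr16:32631663-32631691 and chr16:32631710-32631738 on the plus strand. A match is a description of these letters and not a measurement of binding, and elements that depart from this pattern were not searched for.

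Per kilobase of exon sequence, ferritin mRNAs were the most abundant of the 10 genes. In the striatum of 6-month WT mice *Fth1* averaged 740.0 CPM per kb, *Ftl1* 364, *Trf* 163 and *Tfrc* 9.14. *Aco1*, *Slc11a2* and *Ireb2* followed with 6.11, 4.73 and 4.68 CPM per kb, and *Tmprss6*, *Hfe* and *Slc40a1* were lowest with 2.13, 1.79 and 1.27. In the cortex *Tmprss6* was the lowest of the 10, with 0.132 CPM per kb at 6 months and 0.307 at 12 months. *Tmprss6* counts per library ran from 138 to 877 in the 6-month striatum, from 18 to 636 in the 12-month striatum, from 5 to 68 in the 6-month cortex and from 1 to 64 in the 12-month cortex. Library totals were alike in both tissues, so a difference in the cortex rests on few reads of a gene with a low level there.

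*Tmprss6* (chr15:78439667-78468634, minus strand, 3359 bases of exon sequence) was mainly a striatal transcript. The lowest, median and highest WT libraries at 6 months had 4.37, 6.39 and 13.2 CPM in striatum and 0.0805, 0.519 and 0.798 CPM in cortex. At 12 months the values were 7.89, 9.53 and 13.6 CPM in striatum and 0.539, 0.978 and 1.69 CPM in cortex. No WT cortex reached the lowest WT striatum at either age. Within WT mice, striatum minus cortex of the same mouse was 4.00 (SE 0.20, adjusted p = 1.68e-23) on the log2 scale at 6 months and 3.08 (SE 0.20, adjusted p = 6.77e-21) at 12 months (limma on the difference per mouse). In this comparison 5 of the 10 genes were called at 6 months, where 33.5% of all genes were, and 8 of 10 at 12 months, where 53.7% were. The cortex libraries of the 2 ages were themselves unlike, with *Htt* at 123 CPM in 6-month and 28.1 CPM in 12-month WT cortex, and they differed by transcript length. The median log2 difference of WT cortex at 12 minus 6 months was 0.52 for the 3191 of 12763 genes with the shortest exon sequence and -1.03 for the 3190 with the longest, against -0.17 and 0.05 for 3313 and 3312 genes in striatum. The part of this length difference in the 12-month tissue values was not tested.

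**Figure D1:**
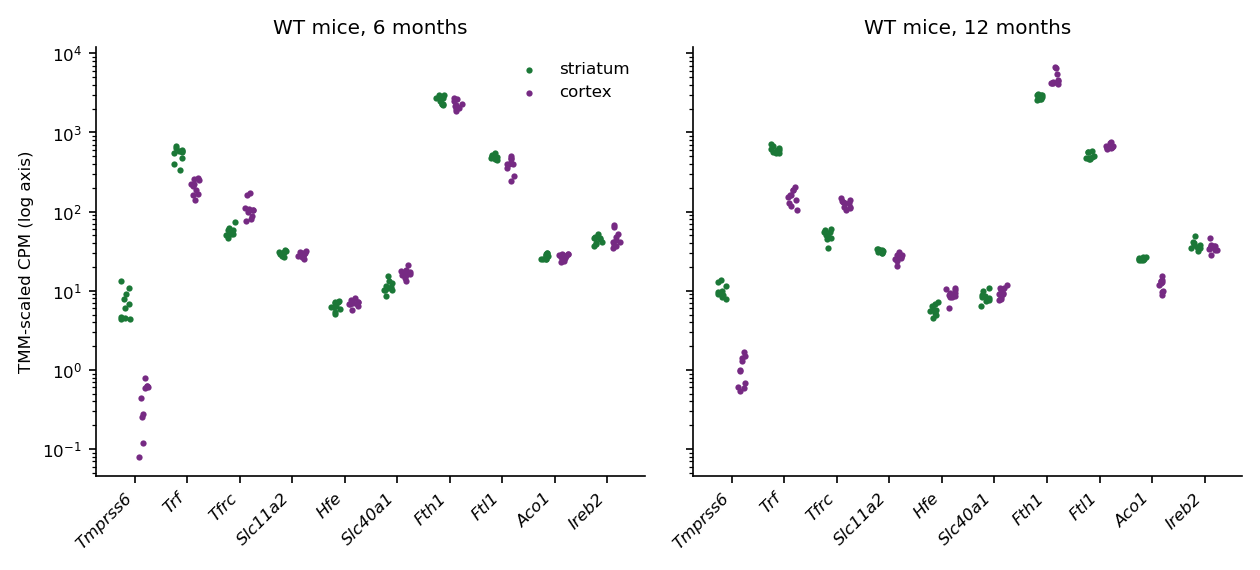
Levels of the 10 genes in WT mice at 6 months (left) and 12 months (right), as TMM-scaled CPM on a log axis, 1 point per library, green for striatum and purple for cortex. *Tmprss6* is the gene whose 2 tissues lie farthest apart, and *Trf* is higher in striatum while *Tfrc* is higher in cortex at both ages.

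In the 6-month striatum *Tmprss6* fell in LacQ140 mice, in which m*Htt* was not lowered. The lowest, median and highest libraries had 5.58, 9.14 and 14.4 CPM in WT + IPTG and 2.44, 2.93 and 5.28 CPM in LacQ140, and the groups did not overlap. Means were 9.2 ± 2.67 CPM (SD, n = 10) and 3.24 ± 0.868 CPM (SD, n = 10). In LacQ140 against WT + IPTG this came to -1.52 (SE 0.18, adjusted p = 9.07e-09) on the log2 scale, a level 2.86-fold lower. Of the 10 genes 3 were called in this comparison, all lower (*Tmprss6*, *Trf* and *Fth1*), where 7.93% of all genes were called. In bulk tissue, fewer cells of a type and less RNA per cell cannot be told apart.

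Lowering of m*Htt* from conception or from 2 months left *Tmprss6* near its WT level at 6 months. LacQ140_A libraries had 3.64, 6.19 and 8.68 CPM and LacQ140_2M libraries 3.51, 5.67 and 10.6 CPM (lowest, median and highest), against 4.37, 6.39 and 13.2 CPM in WT. Both groups overlapped with WT and, at their lower end, with LacQ140. Against LacQ140 the log2 fold change was 0.96 (SE 0.19, adjusted p = 0.000742) for LacQ140_A and 0.94 (SE 0.19, adjusted p = 0.00164) for LacQ140_2M. These comparisons share the LacQ140 libraries with the one above, and called 1.88% and 1.26% of all genes and 2 and 1 of the 10 members. With a score of projection neuron markers as a covariate, given below, neither *Tmprss6* call was kept. Against WT, with which no library is shared, the log2 fold change was -0.18 (SE 0.18, adjusted p = 0.754) and -0.20 (SE 0.18, adjusted p = 0.713). The 95% intervals of these differences ran from -0.53 to 0.16 and from -0.55 to 0.14, so a drop as large as that of LacQ140 from WT + IPTG lay outside both. No member was called against WT at 6 months, where 0.91% of all genes were called for LacQ140_A and 0.936% for LacQ140_2M.

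**Figure D2:**
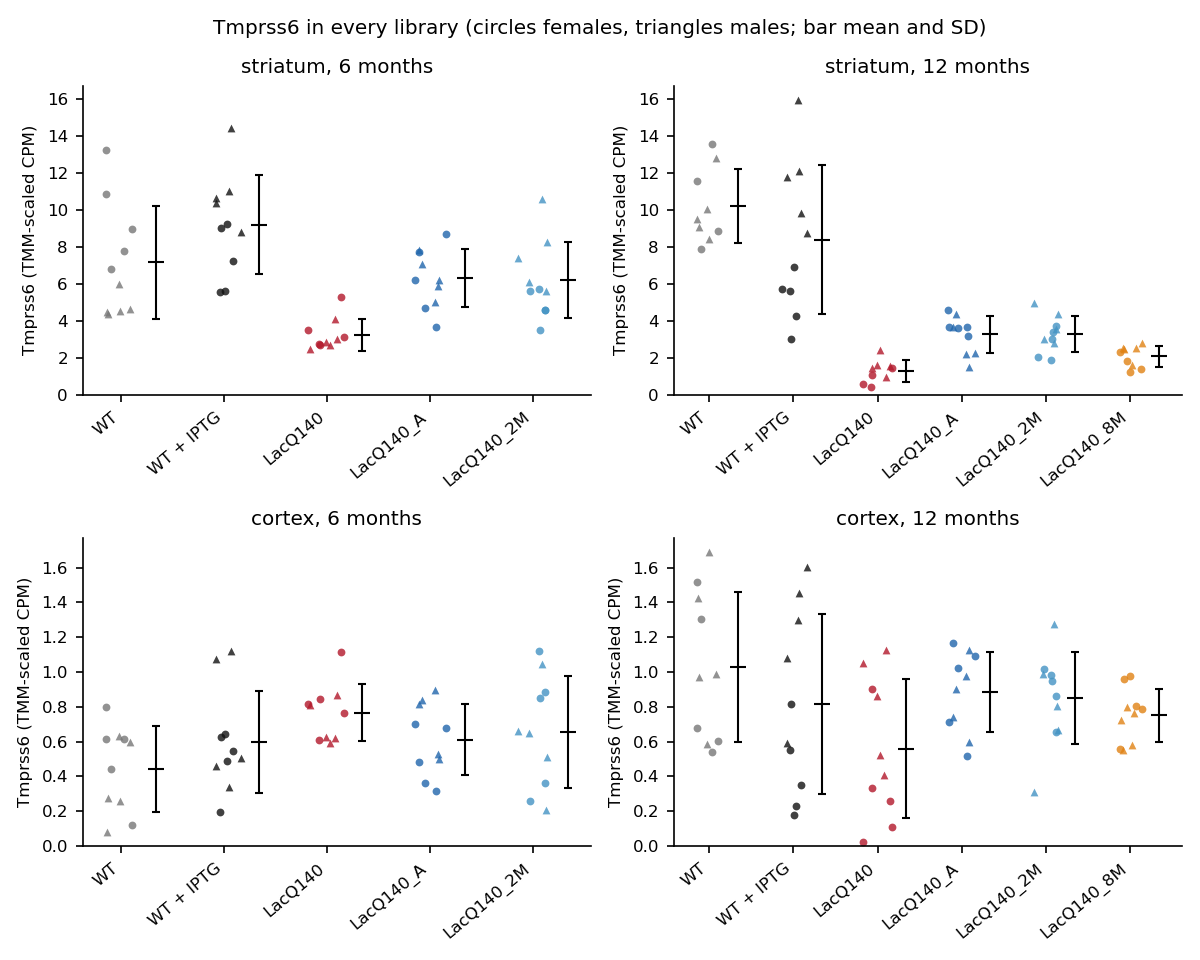
*Tmprss6* in every library as TMM-scaled CPM, by tissue (rows, with different y axes) and age (columns), circles for females, triangles for males, and a bar for the group mean with its SD. In the striatum the LacQ140 group lies lowest at both ages, and at 12 months the lowering groups lie between LacQ140 and WT.

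At 12 months *Tmprss6* was low in the striatum of every group that carried the LacQ140 allele. The contrast on which the gene was chosen had 3.03, 7.82 and 15.9 CPM in WT + IPTG and 0.408, 1.45 and 2.44 CPM in LacQ140 (lowest, median and highest), a log2 fold change of -2.71 that is given without a test. In the same contrast the log2 fold changes of the other members, also without a test, were -0.17 for *Trf*, -0.00 for *Tfrc*, -0.03 for *Hfe*, 0.04 for *Slc11a2*, -0.19 for *Fth1*, 0.05 for *Ftl1*, -0.00 for *Slc40a1*, 0.04 for *Aco1* and 0.10 for *Ireb2*. Across all genes 9.44% were called there, and nothing is read from it for the members. WT mice without IPTG, which took no part in the choice, had 7.89, 9.53 and 13.6 CPM. LacQ140_A had 1.48, 3.62 and 4.56 CPM, LacQ140_2M 1.85, 3.22 and 4.98 CPM and LacQ140_8M 1.24, 2.29 and 2.82 CPM. None of the 3 lowering groups overlapped with WT.

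Against WT the log2 fold change at 12 months was -1.65 (SE 0.20, adjusted p = 5.74e-09) for LacQ140_A, -1.64 (SE 0.20, adjusted p = 4.59e-09) for LacQ140_2M and -2.30 (SE 0.22, adjusted p = 6.01e-13) for LacQ140_8M, and these comparisons share the WT libraries. The levels were 3.15-fold, 3.11-fold and 4.93-fold lower than in WT. Members called in these comparisons numbered 1, 2 and 2, all lower, where 3.15%, 4.09% and 7.77% of all genes were called. Against LacQ140, whose libraries took part in the choice of the gene, the log2 fold change of *Tmprss6* was 1.35 for LacQ140_A, 1.37 for LacQ140_2M and 0.70 for LacQ140_8M, given without a test. None of the other 9 members was called in these comparisons, where 0.91%, 0.608% and 0.00565% of all genes were. The order of the 12-month means from lowest to highest was LacQ140, LacQ140_8M, LacQ140_A, LacQ140_2M, WT + IPTG and WT.

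The groups lowered late and early were compared after the data had been seen. On the log2 scale LacQ140_8M against LacQ140_A gave -0.65 (SE 0.24, adjusted p = 0.137) and against LacQ140_2M -0.67 (SE 0.23, adjusted p = 0.398), neither of which passed the test over all genes. The 95% intervals, which are not adjusted over genes, were -1.11 to -0.19 and -1.13 to -0.21. Among the members *Fth1* was called against LacQ140_A (0.972% of all genes), a call that 2 alternatives given below did not keep, and none against LacQ140_2M (0.0933%). The change between the ages was tested in a fit of both ages, also added after the data had been seen. The log2 difference from WT at 12 months minus that at 6 months was -1.47 (SE 0.29, adjusted p = 0.000597) for LacQ140_A and -1.44 (SE 0.28, adjusted p = 0.00146) for LacQ140_2M. *Tmprss6* was the 1 member called in each, where 1.89% and 0.669% of all genes were. Each difference from WT was taken within its own batch, but age and batch cannot be told apart in the change between them.

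In the cortex no *Tmprss6* difference between groups was called. LacQ140 libraries had 0.592, 0.789 and 1.12 CPM at 6 months and WT + IPTG libraries 0.195, 0.527 and 1.12 CPM, and the log2 fold change was 0.34 (SE 0.26, adjusted p = 0.778). At 12 months it was -0.58 (SE 0.30, adjusted p = 0.59), with LacQ140 at 0.0235 to 1.13 CPM and WT + IPTG at 0.178 to 1.61 CPM. The LacQ140 effect at 6 months differed between the tissues of the same mice, striatum minus cortex, by -1.94 (SE 0.28, adjusted p = 1.43e-05) in log2 terms. *Tmprss6* was the 1 member of 10 called for this difference, where 1.33% of all genes were.

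No *Tmprss6* difference was called for IPTG alone at 6 months. WT + IPTG against WT in the striatum gave 0.37 (SE 0.17, adjusted p = 0.5) at 6 months. At 12 months, where the WT + IPTG libraries took part in the choice of the gene, the log2 fold change was -0.29, given without a test. None of the 10 genes at 6 months and none of the other 9 at 12 months was called for IPTG in the striatum, where 0.584% and 0.218% of all genes were. In 3 of the 4 striatal control groups the sexes lay apart, but not in the same order. In 6-month WT striatum females had 6.79 to 13.2 CPM and males 4.37 to 5.98 CPM, without overlap. In 6-month WT + IPTG striatum females had 5.58 to 9.25 CPM and males 8.81 to 14.4 CPM, with little overlap. At 12 months WT + IPTG females had 3.03 to 6.9 CPM and males 8.73 to 15.9 CPM, without overlap, while WT females and males had 7.89 to 13.6 and 8.43 to 12.8 CPM. These sex ranges were singled out after the values had been seen, and the difference between sexes within a group was not tested. Over all groups, females against males gave -0.05 (SE 0.12, adjusted p = 0.905) at 6 months and -0.39 (SE 0.12, adjusted p = 0.149) at 12 months. The LacQ140 effect in females minus that in males at 6 months was 0.78 (SE 0.28, adjusted p = 1) and was not called.

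Striatal projection neurons are the cells that are lost or altered in Huntington's disease. Their markers were lower in LacQ140 striatum at 6 months and in the lowering groups at 12 months, as *Tmprss6* was. Between the control groups at 6 months the markers did not follow it. Their summed level had a median of 7121 CPM in WT and 6285 in WT + IPTG, while the *Tmprss6* medians were 6.39 and 9.14 CPM. The summed level of the 8 markers was 5345 to 8394 CPM in 6-month WT striatum, 5095 to 7688 in WT + IPTG, 4340.5 to 5440.4 in LacQ140, 5596 to 7871 in LacQ140_A and 5618 to 6324 in LacQ140_2M. At 12 months it was 7203 to 8405 CPM in WT, 6056 to 9128 in WT + IPTG and 3713 to 4551 in LacQ140. In the lowering groups it was 4643 to 5910.5 in LacQ140_A, 3605 to 5861 in LacQ140_2M and 3880.0 to 4959 in LacQ140_8M. Of the 8 markers 7 were called lower in LacQ140 at 6 months (median log2 fold change -0.36) and 7 in LacQ140_8M against WT at 12 months (median -0.65). None was at 0 in any library. With the marker score of each library as a covariate, added after the data had been seen, *Tmprss6* in LacQ140 at 6 months was -1.05 (adjusted p = 0.000605) in log2 terms. Against LacQ140 at 6 months the same fit gave 0.47 (adjusted p = 0.309) for LacQ140_A and 0.54 (adjusted p = 0.17) for LacQ140_2M, and neither was called, while *Tfrc* and *Ftl1* were called in both. Against WT at 12 months it gave -1.16 (adjusted p = 0.0261) for LacQ140_A, -1.13 (adjusted p = 0.036) for LacQ140_2M and -1.63 (adjusted p = 0.00738) for LacQ140_8M. The score differs between the groups by itself, so the covariate also takes up part of the group difference. In this fit 7 members were called in LacQ140 at 6 months, *Fth1*, *Ftl1*, *Hfe*, *Ireb2*, *Tfrc*, *Tmprss6* and *Trf*, in place of 3, where 13.8% of all genes were called.

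Cortical excitatory neuron markers, 4 genes with *Slc17a7* among them, varied between striatal libraries, from 3.7 to 84.2 CPM in 6-month WT + IPTG and from 4.48 to 69.5 CPM in LacQ140, and none was at 0. In LacQ140 at 6 months 1 of the 4 was called lower (median log2 fold change -1.02). Against WT at 12 months the medians were 0.67 in LacQ140_A, 0.50 in LacQ140_2M and 0.97 in LacQ140_8M, and 1 of the 4 was called higher in LacQ140_8M. With the score of these cortical markers as a covariate the 6-month LacQ140 change of *Tmprss6* was -1.53 (adjusted p = 4.03e-08), and with the oligodendrocyte score -1.77 (adjusted p = 7.72e-07). Within groups, residuals of *Tmprss6* were compared with those of the projection neuron score, in a family of 40 relations of the 10 genes with 2 scores at 2 ages. At 6 months Pearson's r was 0.34 over 50 mice (permutation p = 0.0157, adjusted p = 0.0626), Spearman's rho was 0.26 (permutation p = 0.07, adjusted p = 0.215), and r was 0.25 without the 2 mice farthest from the median score. At 12 months Pearson's r was 0.19 over 57 mice (permutation p = 0.165, adjusted p = 0.333), Spearman's rho was 0.11 (permutation p = 0.402, adjusted p = 0.643), and r was 0.10 without the 2 mice farthest from the median score. Neither relation passed the adjusted threshold. For residuals of *Tmprss6* and of the oligodendrocyte score at 6 months Pearson's r was -0.16 over 50 mice (permutation p = 0.257, adjusted p = 0.428), Spearman's rho was -0.12 (permutation p = 0.418, adjusted p = 0.643), and r was -0.04 without the 2 mice farthest from the median score. At 12 months Pearson's r was -0.26 over 57 mice (permutation p = 0.0542, adjusted p = 0.145), Spearman's rho was -0.30 (permutation p = 0.026, adjusted p = 0.104), and r was -0.35 without the 2 mice farthest from the median score. These too did not pass.

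Of 17 other genes that start within 200 kb of *Tmprss6* and had counts in the striatum, the direct neighbours on both sides also had lower values in LacQ140. *Kctd17*, the neighbour on the opposite strand (chr15:78428564-78439303), ends just short of the end of *Tmprss6* without overlap, and the strand setting of the counting is not given in the sources used here. Its change in the striatum on the log2 scale was -0.25 (SE 0.07, adjusted p = 0.014) in LacQ140 at 6 months, a change smaller than the 20% bound, and -0.29 (SE 0.05, adjusted p = 7.16e-05), -0.31 (SE 0.05, adjusted p = 1.65e-05) and -0.43 (SE 0.05, adjusted p = 5.63e-09) in LacQ140_A, LacQ140_2M and LacQ140_8M against WT at 12 months. *Il2rb*, a cytokine receptor subunit gene 10621 bases away on the same strand with a mean of 0.86 log2 CPM in the 6-month striatum, changed by -0.98 (SE 0.15, adjusted p = 2.6e-06) in LacQ140 at 6 months, and against WT at 12 months by -1.14 (SE 0.35, adjusted p = 0.0391) in LacQ140_A, -0.08 (SE 0.31, adjusted p = 1) in LacQ140_2M and -1.81 (SE 0.39, adjusted p = 0.000488) in LacQ140_8M. *C1qtnf6*, 54711 bases away, rose by 0.38 (SE 0.10, adjusted p = 0.00488) in LacQ140 at 6 months. At 6 months 1 of the 17 was called higher and 1 lower in LacQ140, beside 7.93% of all genes, and in LacQ140_8M against WT at 12 months 1 was called higher and 2 lower, beside 7.77%. The window thus held changes in both directions, and whether the neighbours' changes are linked to those of *Tmprss6* was not tested.

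Among 13281 genes whose mean reached 1 log2 CPM in the striatum at both ages, the 5 whose group means followed *Tmprss6* most closely were *Arhgef39* (r = 0.987), *Upb1* (0.984), *Ephx1* (0.983), *Syt12* (0.982) and *Car12* (0.982). These values describe 11 group means, centred within each age, and include the groups the gene was chosen on. The LacQ140 mean of *Arhgef39* minus the average of its groups was -0.38 at 6 months and -0.53 at 12 months on the log2 scale. Mouse by mouse the likeness was to other genes. Residuals from the group mean, 50 mice at 6 months and 57 at 12 months, ranked *Fkbp5* first by the smaller of the 2 values (r = 0.73 and 0.74), which encodes a co-chaperone of the glucocorticoid receptor that glucocorticoids induce. It was followed by *Angptl4* (0.76 and 0.71), *Usp3* (0.70 and 0.80), *Nt5e* (0.74 and 0.70) and *Ada* (0.70 and 0.69). The most negative were *Ugt8a*, a myelin lipid enzyme (-0.70 and -0.63), *Rasgrp3* (-0.64 and -0.61) and *Car2*, a carbonic anhydrase (-0.61 and -0.60). These genes were picked for the size of r, so the values are a description with no p.

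*Trf* (chr9:103204001-103230444, minus strand) fell in the 6-month striatum of LacQ140 mice. WT + IPTG libraries had 485, 541 and 640.5 CPM and LacQ140 libraries 286.6, 422 and 466.4 CPM (lowest, median and highest), without overlap. The log2 fold change was -0.43 (SE 0.08, adjusted p = 0.000195), a level 1.35-fold lower. LacQ140_A libraries had 417 to 611 CPM and stood higher than LacQ140 by 0.37 (SE 0.08, adjusted p = 0.00597) in log2 terms, while LacQ140_2M libraries had 403 to 572 CPM and differed by 0.25 (SE 0.08, adjusted p = 0.154). At 12 months the levels of WT, LacQ140_A, LacQ140_2M and LacQ140_8M overlapped, from 502 to 797 CPM, and no difference from WT was called.

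Oligodendrocyte markers were lower together with *Trf* in LacQ140 at 6 months, and some markers of other cell types were lower too. The summed level of the 10 markers, *Mbp* and *Mog* among them, was 11194 to 16144 CPM in 6-month WT striatum, 13019.6 to 16665 in WT + IPTG, 9972 to 12558 in LacQ140, 10595 to 13523 in LacQ140_A and 11087 to 13124 in LacQ140_2M, with none at 0. LacQ140 thus lay below every WT + IPTG library, and 6 of the 10 markers were called lower (median log2 fold change -0.31). In LacQ140_A against LacQ140, where *Trf* was called, none of the 10 was called (median 0.13). Choroid plexus markers summed to 23.7 to 721 CPM in WT + IPTG and 28.5 to 87.6 in LacQ140, with group medians of 41.2 and 41.8 CPM, and 2 of 5 were called lower (median log2 fold change -0.72). Also called lower were 4 of 7 microglia, 2 of 4 pericyte and 2 of 6 astrocyte markers, with medians of -0.27, -0.26 and -0.25. The part of these 4 lists in the change of *Trf* was not tested. With the oligodendrocyte score as a covariate the 6-month change of *Trf* in LacQ140 was 0.08 (adjusted p = 0.698) and that in LacQ140_A against LacQ140 0.12 (adjusted p = 0.381), and neither was called. The mean score itself was 0.17 in WT + IPTG and -0.18 in LacQ140, so this covariate also takes up part of the group difference. Within groups at 6 months, for residuals of *Trf* and of the score, Pearson's r was 0.87 over 50 mice (permutation p = 1e-05, adjusted p = 0.0002), Spearman's rho was 0.80 (permutation p = 1e-05, adjusted p = 0.0002), and r was 0.81 without the 2 mice farthest from the median score. At 12 months Pearson's r was 0.84 over 57 mice (permutation p = 1e-05, adjusted p = 0.0002), Spearman's rho was 0.75 (permutation p = 1e-05, adjusted p = 0.0002), and r was 0.83 without the 2 mice farthest from the median score. The p of 1e-05 is the smallest that 100000 permutations can give.

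**Figure D3:**
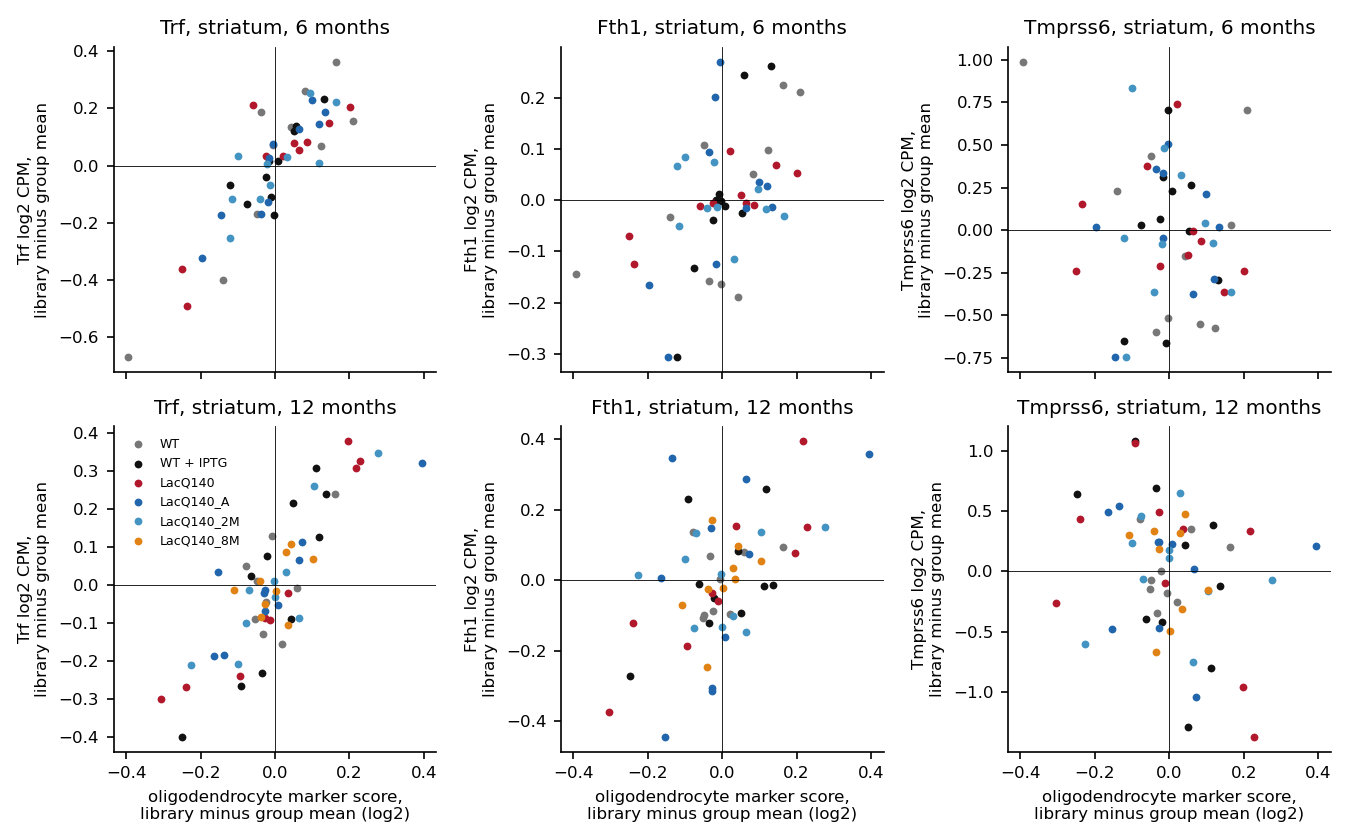
Residuals from the group mean in the striatum at 6 months (upper row) and 12 months (lower row), with the oligodendrocyte marker score on the x axis and log2 CPM of *Trf*, *Fth1* or *Tmprss6* on the y axis, 1 point per mouse coloured by group. *Trf* rises with the score, *Fth1* does so with more scatter, and *Tmprss6* slopes weakly downward, with relations that did not pass the adjusted threshold.

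*Fth1* (chr19:9980598-9985098, plus strand) was called lower in the striatum of LacQ140 at 6 months and of LacQ140_2M and LacQ140_8M at 12 months, by a smaller factor than *Tmprss6*. At 6 months WT + IPTG libraries had 2269.9, 2795 and 3368 CPM and LacQ140 libraries 1984, 2156 and 2313 CPM, with a narrow overlap. The log2 fold change was -0.38 (SE 0.06, adjusted p = 6.67e-07), a level 1.3-fold lower, and LacQ140_A and LacQ140_2M differed from LacQ140 by 0.11 and 0.11 (adjusted p = 0.419 and 0.429). At 12 months WT libraries had 2601, 2805 and 3079 CPM, LacQ140_2M libraries 1909, 2138 and 2347 CPM and LacQ140_8M libraries 1737, 2067 and 2322 CPM, and neither of the latter reached WT. Their log2 fold changes against WT were -0.40 (SE 0.08, adjusted p = 0.000123) and -0.44 (SE 0.08, adjusted p = 2.3e-05). WT + IPTG libraries at 12 months had 2138 to 3094 CPM and overlapped with both of these groups, and LacQ140 libraries had 1733 to 2953 CPM. LacQ140_A libraries spread from 1826 to 3187 CPM and differed from WT by -0.15 (SE 0.08, adjusted p = 0.388). LacQ140_8M minus LacQ140_A was -0.29 (SE 0.08, adjusted p = 0.0354) on the log2 scale, a call that was lost with the oligodendrocyte score as a covariate (-0.16 (adjusted p = 0.518)) and with the replicate block (-0.27 (adjusted p = 0.0769)).

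With the oligodendrocyte score as a covariate the 6-month change of *Fth1* in LacQ140 was -0.20 (adjusted p = 0.0855) and was not called, and the 12-month changes were -0.30 (adjusted p = 0.00212) for LacQ140_2M and -0.29 (adjusted p = 0.00434) for LacQ140_8M. The summed oligodendrocyte markers at 12 months were 12998 to 16207 CPM in WT, 10179 to 12909 in LacQ140_2M and 10357 to 12376 in LacQ140_8M, so these groups too lay lower than WT. At both ages the oligodendrocyte covariate therefore also takes up part of the group difference. With the projection neuron score as a covariate the 12-month changes were -0.33 (adjusted p = 0.158) and -0.34 (adjusted p = 0.238). Within groups at 6 months, for residuals of *Fth1* and of the oligodendrocyte score, Pearson's r was 0.49 over 50 mice (permutation p = 0.00023, adjusted p = 0.00184), Spearman's rho was 0.46 (permutation p = 0.00107, adjusted p = 0.00856), and r was 0.48 without the 2 mice farthest from the median score. At 12 months Pearson's r was 0.53 over 57 mice (permutation p = 7e-05, adjusted p = 0.0009), Spearman's rho was 0.44 (permutation p = 0.00077, adjusted p = 0.0077), and r was 0.41 without the 2 mice farthest from the median score. The light ferritin subunit *Ftl1* was not called in any comparison within a tissue. On the log2 scale it changed by 0.12 (SE 0.06, adjusted p = 0.225) in LacQ140 striatum at 6 months, or 0.28 (adjusted p = 0.00583) and called with the projection neuron score, and -0.05 (SE 0.06, adjusted p = 0.696) in LacQ140_8M against WT at 12 months.

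**Figure D4:**
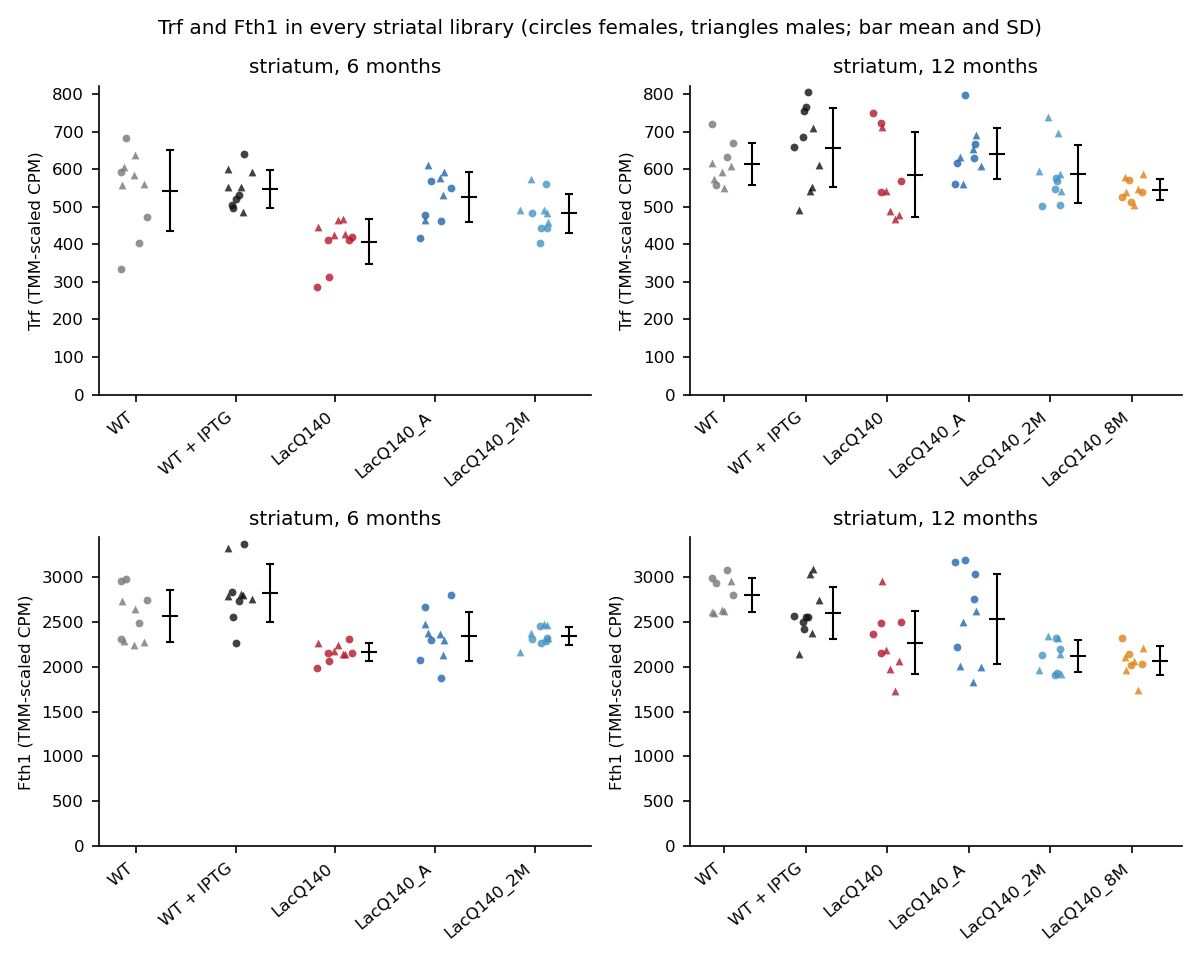
*Trf* (upper row) and *Fth1* (lower row) in every striatal library as TMM-scaled CPM at 6 months (left) and 12 months (right), circles for females, triangles for males, and a bar for the group mean with its SD. At 6 months LacQ140 lies lowest for both genes, and at 12 months LacQ140_2M and LacQ140_8M lie below all WT libraries for *Fth1* but not for *Trf*.

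*Tfrc*, *Hfe* and *Slc11a2*, the uptake genes beside *Trf*, were not called in any tested comparison of treatment groups. *Tfrc* libraries in the 6-month striatum had 52.6, 63.3 and 97.4 CPM in WT + IPTG and 47, 55 and 75.1 CPM in LacQ140, and the log2 fold change of -0.27 (SE 0.10, adjusted p = 0.0538) missed the threshold, although it was passed without any 1 of 8 libraries, with filterByExpr (-0.27 (adjusted p = 0.0423)) with only the 2 groups in the fit (-0.28 (adjusted p = 0.0441)) and with the projection neuron score (-0.61 (adjusted p = 3.24e-05)). *Slc11a2* changed by -0.10 (SE 0.05, adjusted p = 0.183) and *Hfe* by -0.15 (SE 0.08, adjusted p = 0.258) in the same comparison, and *Hfe* was called with the projection neuron score (-0.29 (adjusted p = 0.0423)). Against WT at 12 months *Tfrc*, *Slc11a2* and *Hfe* differed by -0.12, 0.06 and -0.12 in LacQ140_8M, with adjusted p-values of 0.666, 0.564 and 0.547 (edgeR). Within groups at 6 months, for residuals of *Tfrc* and of the projection neuron score, Pearson's r was -0.53 over 50 mice (permutation p = 9e-05, adjusted p = 0.0009), Spearman's rho was -0.47 (permutation p = 0.00076, adjusted p = 0.0077), and r was -0.45 without the 2 mice farthest from the median score. At 12 months Pearson's r was -0.17 over 57 mice (permutation p = 0.211, adjusted p = 0.401) and Spearman's rho was -0.14 (permutation p = 0.292, adjusted p = 0.568), and neither passed. Between tissues *Tfrc* did differ. It had 46.4 to 73.7 CPM in WT striatum and 77.3 to 171 CPM in WT cortex at 6 months, and striatum minus cortex was -0.96 (SE 0.09, adjusted p = 2.27e-13) at 6 months and -1.48 (SE 0.07, adjusted p = 4.04e-26) at 12 months. *Trf* went the other way, with 1.35 (SE 0.06, adjusted p = 1.73e-25) and 1.84 (SE 0.09, adjusted p = 5.56e-27).

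*Slc40a1*, the exporter, fell in 1 comparison, that of IPTG in the 6-month cortex. WT libraries had 13.4, 16.5 and 21.2 CPM and WT + IPTG libraries 9.52, 12.1 and 15.3 CPM, and the groups overlapped. The log2 fold change was -0.46 (SE 0.10, adjusted p = 0.0169). It was the 1 member called, where 0.609% of all genes were, and with the oligodendrocyte score as a covariate it was -0.37 (adjusted p = 0.198) and was not called. In this comparison 2 of 10 oligodendrocyte and 2 of 6 astrocyte markers were also called lower, and their part in the change was not tested. At 12 months the cortical value of *Slc40a1* was 0.12 (SE 0.10, adjusted p = 0.946), and in the striatum -0.11 (SE 0.11, adjusted p = 0.817) at 6 months and 0.01 (SE 0.09, adjusted p = 1) at 12 months. WT striatum minus WT cortex was -0.58 (SE 0.06, adjusted p = 2.54e-11) at 6 months and -0.31 (SE 0.09, adjusted p = 0.00215) at 12 months on the log2 scale. In LacQ140 striatum at 6 months *Slc40a1* changed by -0.09 (SE 0.11, adjusted p = 0.685).

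The iron sensors *Aco1* and *Ireb2* were not called in any tested comparison of treatment groups. *Aco1* libraries lay between 22.7 and 30.4 CPM over all striatal groups and ages, and its change in LacQ140 at 6 months was 0.11 (SE 0.05, adjusted p = 0.133). *Ireb2* libraries lay between 28.8 and 58.5 CPM, with -0.08 (SE 0.07, adjusted p = 0.592) in LacQ140 at 6 months, or -0.28 (adjusted p = 0.02) with the projection neuron score, and 0.24 (SE 0.09, adjusted p = 0.0558) in LacQ140_8M against WT at 12 months, where the threshold was passed without any 1 of 5 libraries and with the cortical neuron score as a covariate (0.30 (adjusted p = 0.0178)). Within groups at 6 months, for residuals of *Ireb2* and of the projection neuron score, Pearson's r was -0.44 over 50 mice (permutation p = 0.00137, adjusted p = 0.00913), Spearman's rho was -0.41 (permutation p = 0.00351, adjusted p = 0.0234), and r was -0.31 without the 2 mice farthest from the median score. At 12 months Pearson's r was -0.08 over 57 mice (permutation p = 0.549, adjusted p = 0.708) and Spearman's rho was -0.10 (permutation p = 0.463, adjusted p = 0.661), and neither passed. In the 12-month cortex *Aco1* had 8.91 to 15.4 CPM in WT, against 24.2 to 27.1 in striatum, and striatum minus cortex was 0.88 (SE 0.09, adjusted p = 1.16e-13). At 6 months that difference was -0.01 (SE 0.04, adjusted p = 0.869). *Fth1*, *Ftl1* and *Hfe* were called lower in striatum than cortex at 12 months, with log2 differences of -0.91, -0.55 and -0.78, while at 6 months the log2 differences were 0.15, 0.31 and -0.16 and *Ftl1* was called higher in striatum. Whether tissue differences changed with age was not tested, nor was the part that the length difference of the 12-month cortex libraries, given above, has in these 12-month values (*Ireb2* and *Slc40a1* have 9479 and 9000 bases of exon sequence, *Aco1* 4496, *Hfe* 3572, *Fth1* 3469 and *Ftl1* 1340).

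**Figure D5:**
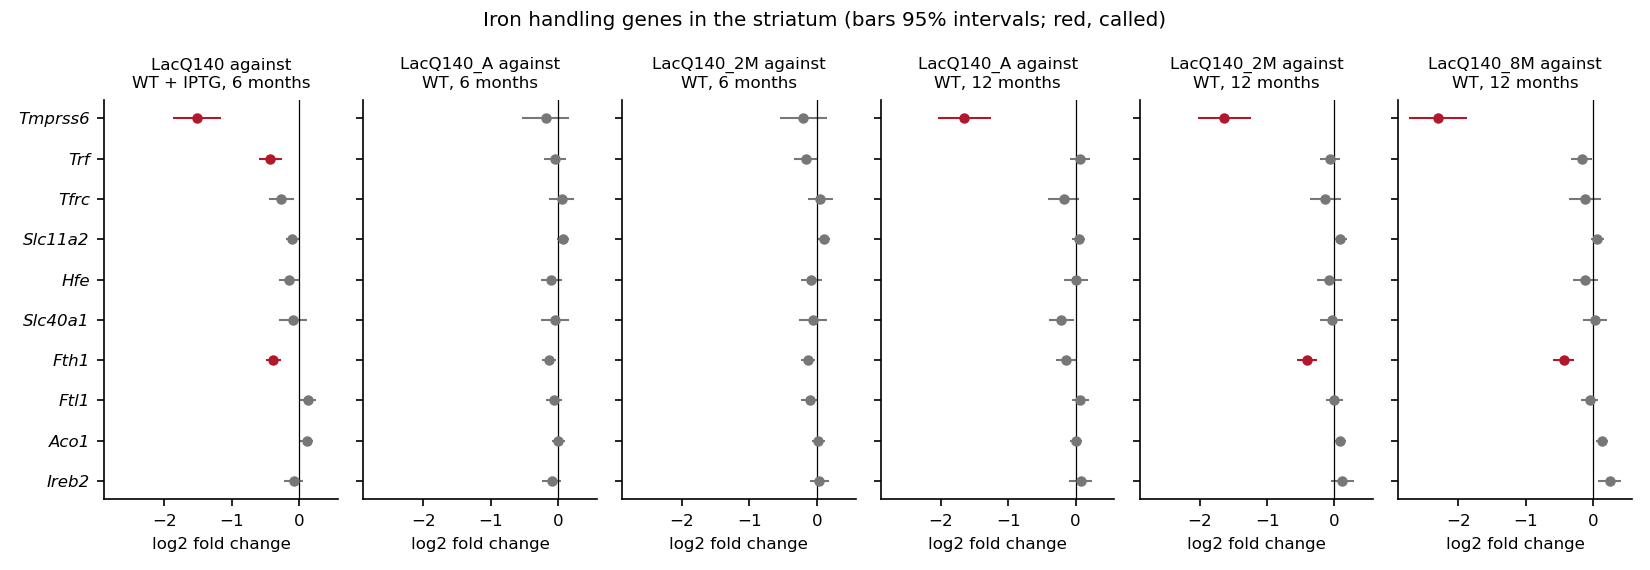
Log2 fold changes of the 10 genes in the striatum in 6 comparisons that do not share libraries with the contrast used to choose *Tmprss6*, with 95% intervals and called genes in red. *Tmprss6* is called in 4 of the 6 panels, *Fth1* in 3 and *Trf* in 1, all lower, and the other 7 genes in none.

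In the remaining comparisons none of the 10 genes was called. In the cortex this held for LacQ140 against WT + IPTG (0.881% of all genes called at 6 months and 0.0899% at 12 months), for LacQ140_A against LacQ140 (0.00834% and 0.0435%), for LacQ140_2M against LacQ140 (0%, with 3498 genes at an unadjusted p under 0.05 in edgeR, and 0.0841%) and for LacQ140_A against WT (0.425% and 0.0174%). It also held at 12 months for LacQ140_8M against LacQ140 (0%, with 977 genes at an unadjusted p under 0.05) and for IPTG (0%, with 2001). With only the 2 groups in the fit, *Fth1* was called in LacQ140_A against LacQ140 in the 12-month cortex (0.33, edgeR adjusted p = 0.00143). Females against males gave no member in the striatum (0.279% and 0.218%) or the cortex (0.192% and 0.154%). No gene of the table was called for a sex difference of the LacQ140 effect at 6 months (0% in each tissue), where 1385 genes in striatum and 1069 in cortex had an unadjusted p under 0.05 in edgeR.

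The wider iron pathway was read from 8 lists of 97 genes, none of which is one of the 10. In 6-month LacQ140 striatum 2 of 95 tested genes were called higher and 2 lower, a share of 4.21% beside 7.93% of all genes. *Slc22a17*, a lipocalin-2 receptor, rose by 0.33 (SE 0.06, adjusted p = 0.000155) on the log2 scale, and *Heph*, a copper ferroxidase that works with ferroportin, changed by -0.32 (SE 0.09, adjusted p = 0.0116) in log2 terms. *Heph* had moved the other way with IPTG, by 0.57 (SE 0.09, adjusted p = 0.00064), and these 2 comparisons share the WT + IPTG libraries. In LacQ140_8M against WT at 12 months 8 of 96 were called higher and 8 lower, a share of 16.7% beside 7.77%. In LacQ140_A and LacQ140_2M against WT at 12 months 3 and 4 of 96 were called (3.12% and 4.17%), close to the 3.15% and 4.09% of all genes. The shares of all genes include every gene with at least 1 count, however low its level, and shares matched for level were not computed.

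By list, 4 of 19 genes of the hepcidin and BMP axis were called in LacQ140_8M against WT (median log2 fold change of the list 0.12, of all genes 0). *Bmp2* changed by -0.60 (SE 0.09, adjusted p = 1.57e-07) and *Bmp6*, the main inducer of hepcidin in the liver, by -0.43 (SE 0.09, adjusted p = 0.000316), while *Acvr2a*, an activin and BMP receptor, rose by 0.30 (SE 0.09, adjusted p = 0.0149). *Bmp2* was higher than in LacQ140 in LacQ140_A at both ages, by 0.34 (SE 0.08, adjusted p = 0.0121) and 0.59 (SE 0.09, adjusted p = 2.7e-06), and in LacQ140_2M at 12 months, by 0.56 (SE 0.08, adjusted p = 1.59e-05). At 6 months *Bmp2* in LacQ140_A was also higher than in WT, by 0.30 (SE 0.08, adjusted p = 0.0491), and it was not called in LacQ140 against WT + IPTG. Of 12 type II transmembrane serine proteases other than *Tmprss6*, 1 was called higher and 1 lower. *Tmprss5* rose at 12 months on the log2 scale, by 1.09 (SE 0.13, adjusted p = 3.72e-09) in LacQ140_A, 1.0037 (SE 0.13, adjusted p = 3.1e-08) in LacQ140_2M and 0.81 (SE 0.14, adjusted p = 6.67e-06) in LacQ140_8M against WT at 12 months. Heme genes gave 1 higher and 2 lower of 16, with *Blvrb*, a biliverdin reductase, at -0.39 (SE 0.10, adjusted p = 0.00205). Mitochondrial iron genes gave 1 higher and 1 lower of 18, *Abcb10* at 0.34 (SE 0.05, adjusted p = 3.57e-07) and *Lyrm4*, a partner of the iron-sulfur cluster enzyme, at -0.40 (SE 0.07, adjusted p = 4.21e-05). Uptake and reduction genes gave 2 higher and 1 lower of 15, the lower being the ferrireductase *Steap3* at -0.39 (SE 0.13, adjusted p = 0.0327). IRP and oxygen control gave 2 higher of 7, and the lists of export and oxidation (4 genes) and of storage and chaperones (5 genes tested) gave none.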

How the data were processed

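RNA-Seq was analysed in 217 libraries of striatum and cortex from 110 mice. The authors deposited expected counts (estimated counts) for 54532 genes in 1 table per age. Of the nonzero values 33.26% at 6 months and 31.29% at 12 months were not whole numbers. The submitters' processing notes name the genome build GRCm38, and aligner, quantifier, library kit and strand setting are not given in the sources used here. Totals ran from 33292057 to 68038831 counts per library, and the 10 genes and all gene and marker lists were chosen with earlier results of these data known.

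Counts were rounded, scaled by TMM and tested with edgeR 4.0.16 in R 4.3.3 (quasi-likelihood F-test, genes with at least 1 count, all groups of a tissue and age in 1 fit, Benjamini-Hochberg adjustment over all genes). Tissues were compared with limma 3.58.1 on log2 CPM (prior count 2) of striatum minus cortex per mouse. Genes were called at an adjusted p under 0.05 and a change of at least 20%. Alternatives were DESeq2 1.42.0 and its size factors, filterByExpr, only the 2 groups in the fit, sex or a marker score as a covariate, a replicate block, no change bound, a prior count of 0.5 and leaving out each library. Marker scores were means of centred log2 CPM. Relations used 100000 permutations in SciPy 1.17.1. The scripts were tested on simulated data.

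The text named all 10 members, genes starting within 200 kb of *Tmprss6*, up to 3 called genes per list (those that changed most among genes with mean log2 CPM of 1 or more), and for likeness the first 5 genes by group mean and by mouse and the 3 most negative by mouse. Late against early lowering, 12 against 6 months, the projection neuron covariate and the refits without 1 library were chosen after seeing the data. No 2 libraries of a group agreed within sampling noise (lowest chi-square per degree of freedom 6.15 over 963 pairs). Sequences came from GENCODE M21.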

Additional observations from a re-analysis of the deposited data

Results flagged for a closer look

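Of 220 groups of libraries examined, 1 per gene, tissue, age and treatment, 7 held a library far from the others of its group, and chance flags about 1 in 20. *Tmprss6* was 1.12 CPM in the 6-month cortex of LacQ140 female 5, with the next library at 0.868 CPM. *Slc40a1* was 16.9 CPM in the 6-month striatum of WT + IPTG female 5 (next 12.2 CPM), and *Ftl1* was 629 CPM in the 12-month striatum of WT + IPTG male 4 (next 533 CPM). *Hfe* was high in the 12-month striatum of LacQ140_8M female 2, at 6.99 CPM (next 5.71 CPM). In the 12-month cortex *Hfe* was low in LacQ140 male 5, at 6.81 CPM (next 9.23 CPM), and in WT male 4, at 6.09 CPM (next 8.31 CPM). *Ireb2* was 47.1 CPM in the 12-month cortex of WT female 4 (next 37.5 CPM).

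Effects on *Tmprss6* differed between conditions in 3 tests, all across genes with Benjamini-Hochberg adjustment. The 6-month LacQ140 effect in striatum minus that in cortex was -1.94 on the log2 scale (limma, adjusted p = 1.43e-05). The difference from WT in the striatum at 12 months minus that at 6 months was -1.47 for LacQ140_A (edgeR, adjusted p = 0.000597) and -1.44 for LacQ140_2M (adjusted p = 0.00146). The 2 ages carry different batch labels, and age and batch cannot be told apart in the latter values.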

How the results depend on the processing

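Over 38 comparisons and their alternatives, with leave-one-out fits for 7 of them, the count of members called stayed within 1.5 times of the value reported in 416 cases, was higher in 3 and lower in 8, among them 1 count that rests on *Tmprss6* against the libraries it was chosen on. The cause of these exceptions was not tested. With the oligodendrocyte score as a covariate, 1 member in place of 3 was called in LacQ140 at 6 months, 1 in place of 2 in LacQ140_A against LacQ140 at 6 months, 0 in place of 1 in LacQ140_8M against LacQ140_A, and 0 in place of 1 for IPTG in the 6-month cortex. *Trf* in LacQ140 at 6 months reversed to 0.077. With the projection neuron score, 7 were called in LacQ140 at 6 months, 2 (*Ftl1* and *Tfrc*, not *Tmprss6*) in place of 1 in LacQ140_2M against LacQ140 at 6 months, and 1 in place of 2 in LacQ140_2M and in LacQ140_8M against WT at 12 months. In LacQ140_A against LacQ140 at 6 months the same fit replaced *Tmprss6* (0.47) by *Tfrc* (0.41) and *Ftl1* (-0.28), and at 12 months, where *Tmprss6* is given without a test, its value was 1.03 and no other member was called. With only the 2 groups in the fit, 1 (*Fth1*) in place of 0 was called in LacQ140_A against LacQ140 in the 12-month cortex.

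With the replicate block the *Fth1* call in LacQ140_8M against LacQ140_A was lost (-0.27, edgeR adjusted p = 0.0769, 0 members called), and no other count of members changed by over 1.5 times. On average, same-numbered libraries were not more alike than others, except in the 12-month cortex, and these differences were not tested. Residual profiles of same-numbered striatal libraries correlated at 0.021 on average at 6 months and 0.065 at 12 months, and those of other libraries at 0.078 and 0.089. In the cortex the averages were 0.039 and 0.063 for the same number and 0.076 and 0.020 for others, and single pairs fell below 0 in each tissue and age.

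Without single libraries the members called ranged from 3 to 4 in LacQ140 at 6 months and from 2 to 3 in LacQ140_8M against WT. The added calls were *Tfrc* (adjusted p 0.0166 to 0.0487 without LacQ140 female 1, male 1 or male 2, or WT + IPTG female 2, 3 or 4 or male 3 or 4) and *Ireb2* (0.0132 to 0.0411 without LacQ140_8M female 2 or 5 or male 3 or 4, or WT male 3). *Tmprss6* in LacQ140 at 6 months stayed between -1.62 and -1.42 and was called each time. In the cortex *Tmprss6* had only 1 to 68 counts per library, at totals like those of the striatum.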
